A study of Capra hircus with 6 samples.

Results

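Cytosolic ribosomal protein genes encode the proteins of the ribosome that translates messenger RNA in the cytoplasm. The 74 rows of the deposited count table whose symbols are RPL or RPS with a number (with or without a final A, X or Y), RPLP0, RPLP1, RPLP2 or RPSA were taken, of 28907 rows in all. The rule used symbols alone, but it was set with earlier results of these data known. The 74 comprise 43 genes of the large subunit and 31 of the small subunit. RPL17, RPL34 and RPL41 were not analysed here. The groups were adult Alpine goats (Capra hircus) of the January follicular phase, when an ovulatory follicle grows, and adult Alpine goats of mid-May anestrus, when the ovaries do not cycle. The tissue was the medio-basal hypothalamus, the base of the brain that holds the arcuate nucleus and median eminence, and no transgene or treatment is named in the labels. Season and ovarian state differ together between the groups, so their parts cannot be told apart. RNA from 5 follicular and 8 anestrus goats was mixed at random into 2 equimolar pools per group, and each pool gave 1 library. The number of goats in a pool is not given, so every spread and p-value below is between pools, not between goats.

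The ribosome has a small subunit, which reads the message, and a large subunit, which joins amino acids. Each ribosomal protein is needed in about the same number of copies per ribosome. The messenger RNAs of vertebrate ribosomal proteins begin with a run of pyrimidines, the 5′ terminal oligopyrimidine (TOP) tract, through which mTORC1 signalling and the RNA-binding protein LARP1 control their translation and stability together. In neurons, ribosomal protein messages are also carried into axons and dendrites.

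Totals ran from 17090623 to 25292678 counts in the follicular libraries and from 14553821 to 17910056 in the anestrus libraries. In each pair of values below, pool 1 of a group is followed by its pool 2. All 74 genes passed the filter on low counts, with at least 1522 counts each in every pool, so counting error is small beside the differences between pools. Levels are CPM, counts scaled to a common library size, with library totals adjusted by TMM factors. CPM is not corrected for transcript length, so a higher CPM of one gene than of another does not mean more copies of its RNA. Many ribosomal protein genes have near-identical processed copies in mammalian genomes, and how reads that map to several places were treated is not given in the sources used here, so each count may lack reads or hold reads from a copy.

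As a whole the ribosomal protein genes had less RNA in the follicular pools, but the distance between the 2 anestrus pools was as large as the distance between the groups. Their summed level was 33672 and 33260 CPM in the follicular pools, against 48175 and 36667 CPM in the anestrus pools. Both follicular pools lay below both anestrus pools, and anestrus pool 1 stood well above the other 3. These sums were 3.38% and 3.35% of all counts in the follicular libraries, against 4.72% and 3.69% in the anestrus libraries. The means were 33466 ± 292 CPM over the follicular pools and 42421 ± 8137 CPM over the anestrus pools (SD, n = 2 pools each), a ratio of 0.789. Within anestrus, pool 1 held 1.31 times the summed level of pool 2, while follicular pool 1 held 1.01 times that of follicular pool 2. Set against anestrus pool 2 alone, the follicular mean was 0.913 of its level, and set against anestrus pool 1 alone it was 0.695. The 2 subunits kept nearly the same proportion in every pool, with a summed level of the large subunit 1.43 and 1.46 times that of the small subunit in the follicular pools, against 1.46 and 1.45 times in the anestrus pools.

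**Figure D1:**
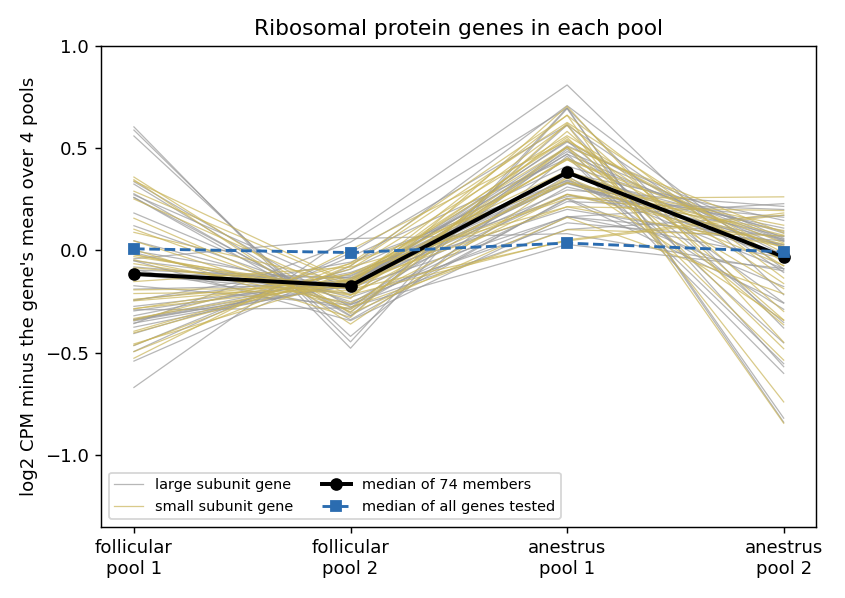
Each thin line is 1 of the 74 ribosomal protein genes (grey for the large subunit, ochre for the small), with log2 CPM minus the gene's mean over the 4 pools on the vertical axis and the pools on the horizontal axis. The black line is the median of the 74 genes (-0.11, -0.17, 0.38 and -0.03 from left to right) and the dashed blue line the median of all genes tested, which stays within 0.04 of 0 in each pool.

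No single ribosomal protein gene passed the test between the groups. In edgeR's quasi-likelihood test over 16756 genes, 0 of the 74 had an adjusted p under 0.05, where 0.203% of all genes tested did, and the smallest adjusted p was 0.330, for RPL7. DESeq2 and limma-voom also called 0. Before adjustment, 29 of the 74 had a p under 0.05 in edgeR, all lower in the follicular pools, beside 4.29% of all genes tested. In either direction, DESeq2 gave such a p to 24 of the 74 and limma-voom to 30. Over all 16756 genes tested they gave it to 1260 and 1511. The log2 fold change, follicular minus anestrus, was below 0 for 65 of the 74, beside 50.1% of all genes tested, and above 0 for 9. Its median was -0.35, beside 0.00 over all genes tested and -0.01 over the 1482 other genes with a mean CPM in the same range. The largest differences were modest, from -0.65 for RPL22 to 0.13 for RPL13A. In 39 of the 74 both follicular pools lay below both anestrus pools, beside 20.7% of all genes tested, and in 0 both lay above, beside 17.6%. These genes share their libraries and move together, so the counts do not add up as 74 separate observations.

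**Figure D2:**
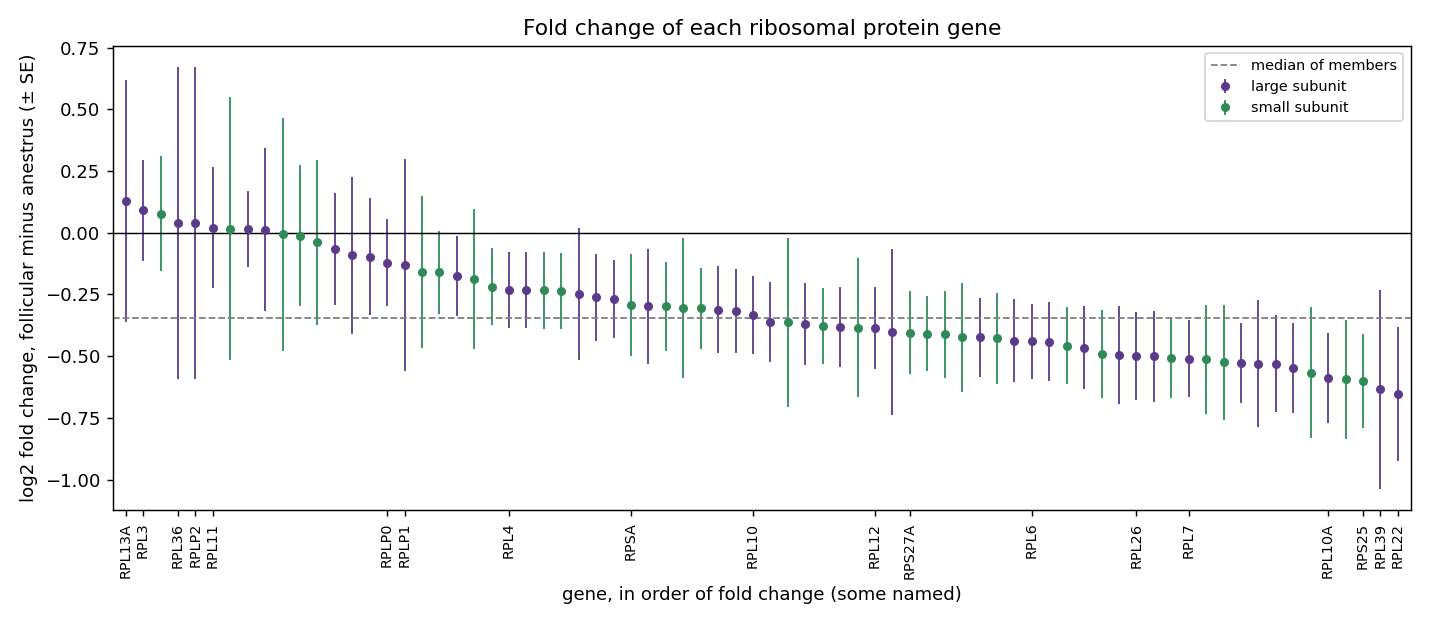
Points give the log2 fold change, follicular minus anestrus, of each of the 74 ribosomal protein genes in order of size, with a few named, bars give its standard error, and colour gives the subunit. The dashed line is the median of -0.35. Genes of both subunits are spread along the whole order, and the widest bars belong to genes near 0 such as RPL36 and RPLP2.

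Most of the family shared the high place of anestrus pool 1, while the order of the other pools varied between genes. Anestrus pool 1 was the highest of the 4 pools for 63 of the 74 genes, which is 85.1%, beside 29.6% of all genes tested. Follicular pool 1 was the lowest for 33, follicular pool 2 for 22 and anestrus pool 2 for 19. Of the 16756 genes tested, the same pools were the lowest for 4141, 3296 and 4998. All 74 genes were lower in follicular pool 2 than in anestrus pool 1, and 68 were lower in follicular pool 1 than in anestrus pool 1. Over all genes tested these counts were 9134 and 8408. Against anestrus pool 2, 45 of the 74 were lower in follicular pool 1 and 49 in follicular pool 2, with median differences of -0.17 and -0.14 on the log2 CPM scale. Over all genes tested, 8347 and 8180 were lower, with median differences of 0.00 and 0.01. Without anestrus pool 1 the median log2 fold change of the family was -0.15, with 49 genes below 0 and 25 above. Without anestrus pool 2 it was -0.49, with 73 below 0.

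Leaving out an anestrus pool produced calls in opposite directions. Without anestrus pool 1, 6 genes (8.11%) passed, all higher in the follicular pools, beside 3.15% of all genes tested in that fit that were called higher. Among them were RPS15, RPS28, RPLP1 and RPL13A. Without anestrus pool 2, 24 (32.4%) passed, all lower in the follicular pools, beside 1.64% of all genes tested in that fit that were called lower. Among them were RPL22, RPL39, RPS25 and RPL10A. In such fits the remaining anestrus pool is a lone sample that is assumed to vary like the follicular pools, so they do not settle whether a gene changed. Without either follicular pool, 0 passed.

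The 3 acidic stalk proteins and RPL12 form and anchor the stalk of the large subunit that recruits elongation factors. RPLP0, the stalk's base, had 539 and 416 CPM in the follicular pools, against 556 and 483 CPM in the anestrus pools. The groups overlapped, and its log2 fold change was -0.12 ± 0.18 (SE, adjusted p = 0.923, edgeR). RPLP1, which binds RPLP0 as a dimer with RPLP2, had 762 and 503 CPM in the follicular pools, against 962 and 424 CPM in the anestrus pools. Anestrus thus held both the highest and the lowest pool for RPLP1. RPLP2 had 227 and 107 CPM in the follicular pools, against 242 and 84.6 CPM in the anestrus pools. The partners RPLP1 and RPLP2 followed the same order of pools, and the log2 fold changes were -0.13 ± 0.43 and 0.04 ± 0.63 (adjusted p of 0.974 and 0.993, edgeR). RPL12 had 354 and 289 CPM in the follicular pools, against 411 and 429 CPM in the anestrus pools, without overlap, at a log2 fold change of -0.39 ± 0.16 (adjusted p = 0.548, edgeR). Among these 4 neighbours on the ribosome, RPL12 was the 1 whose anestrus pools lay close together and apart from the follicular pools.

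RPL5 and RPL11 travel together with 5S ribosomal RNA into the large subunit, and unassembled they bind MDM2, the inhibitor of p53. RPL5 had 499 and 555 CPM in the follicular pools, against 770.2 and 661 CPM in the anestrus pools, with no overlap and a log2 fold change of -0.44 ± 0.16 (adjusted p = 0.443, edgeR). RPL11 had 318 and 204 CPM in the follicular pools, against 303 and 213 CPM in the anestrus pools. In RPL11 pool 1 stood above pool 2 in both groups, by more than the groups differed, and the log2 fold change was 0.02 ± 0.24.

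Around the centre where peptide bonds form lie RPL3, RPL4, RPL8 and RPL10, and RPL10A makes up the mobile L1 stalk through which spent transfer RNA leaves. RPL10 had 586 and 551 CPM in the follicular pools, against 769.6 and 662 CPM in the anestrus pools, a log2 fold change of -0.33 ± 0.16 (adjusted p = 0.610, edgeR). RPL10A had 228 and 229 CPM in the follicular pools, against 397 and 290.0 CPM in the anestrus pools. Its follicular pools were nearly equal while the anestrus pools differed, at a log2 fold change of -0.59 ± 0.18 (adjusted p = 0.337, edgeR). RPL3 had 433 and 283 CPM in the follicular pools, against 350 and 322 CPM in the anestrus pools, so that both anestrus pools lay between the follicular ones. RPL4 and RPL8 had log2 fold changes of -0.23 ± 0.15 and -0.06 ± 0.23.

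Of 6 proteins that ring the exit of the tunnel for the growing chain (RPL19, RPL23A, RPL26, RPL31, RPL35 and RPL39), all had a log2 fold change below 0, with a median of -0.37, and 5 did not overlap between the groups. RPL39, a very small protein lining the tunnel's end, was the exception, at 459 and 770.3 CPM in the follicular pools, against 1279.5 and 628 CPM in the anestrus pools. It had the widest gap in the family between follicular pools with pool 1 the lower, and its log2 fold change was -0.63 ± 0.40 (adjusted p = 0.770, edgeR). RPL26 had 649 and 807 CPM in the follicular pools, against 1144 and 911 CPM in the anestrus pools, a log2 fold change of -0.50 ± 0.18 (adjusted p = 0.430, edgeR).

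Along the channel of the small subunit through which the message passes lie RPS2, RPS3, RPS14, RPS26, RPS28 and RPSA. Of these 6, RPS3 was the 1 without overlap, at 864 and 754 CPM in the follicular pools, against 908 and 994 CPM in the anestrus pools. RPSA, also known as the laminin receptor precursor, had 218 and 205 CPM in the follicular pools, against 314 and 203 CPM in the anestrus pools. Anestrus pool 1 alone was high, and the log2 fold change of RPSA was -0.29 ± 0.21 (adjusted p = 0.779, edgeR). RPS28 had 538 and 381 CPM in the follicular pools, against 672 and 237 CPM in the anestrus pools. At the decoding site, RPS15 had 173 and 126 CPM in the follicular pools, against 216 and 84.5 CPM in the anestrus pools. RPS28 and RPS15, like RPLP1 and RPLP2, had their highest and their lowest pool both in anestrus.

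RPS27A is made as a fusion to ubiquitin, which is cut off after translation, and so supplies ubiquitin as well as ribosomes. It had 657 and 796 CPM in the follicular pools, against 1046 and 876 CPM in the anestrus pools, without overlap, at a log2 fold change of -0.40 ± 0.17 (adjusted p = 0.536, edgeR). RPS6, whose phosphorylation by S6 kinases is used as a readout of mTORC1 activity, had 280.1 and 315 CPM in the follicular pools, against 447 and 344 CPM in the anestrus pools. The RPS6 groups did not overlap, and its log2 fold change was -0.41 ± 0.18 (adjusted p = 0.549, edgeR). These values are of RNA and say nothing of phosphorylation.

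**Figure D3:**
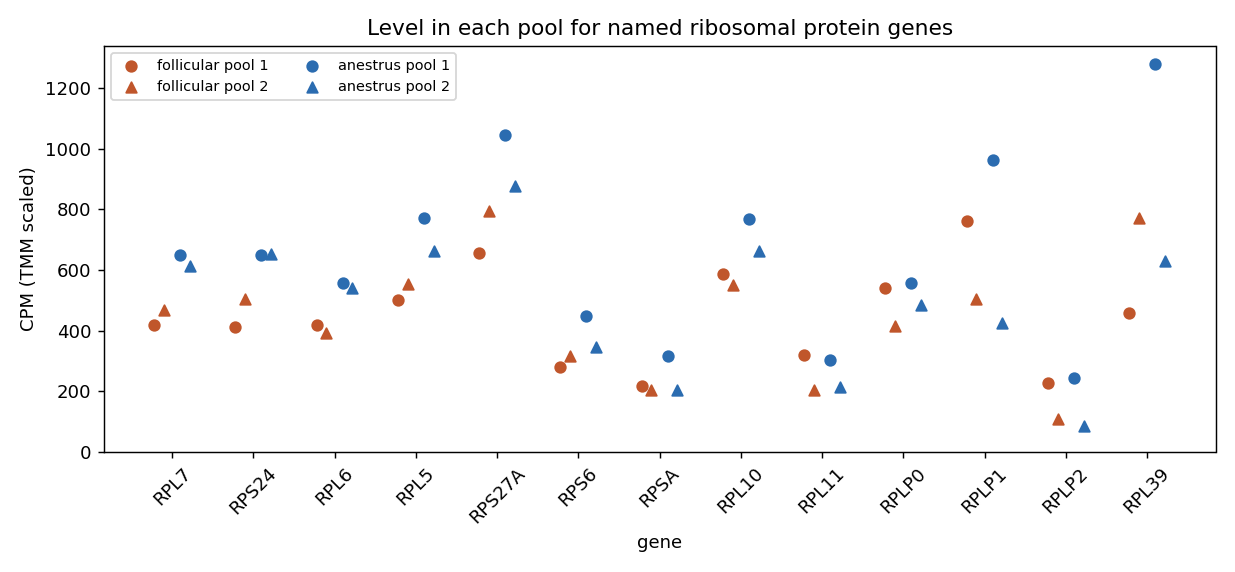
Levels in CPM of ribosomal protein genes described in the text, with orange symbols for the follicular and blue symbols for the anestrus pools, circles for pool 1 and triangles for pool 2. In RPL7, RPS24 and RPL6 the 2 colours stand apart. In RPL11, RPLP1 and RPLP2 the circles stand above the triangles in both groups.

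In 32 of the 74 genes both differences between pools of a group were smaller than the difference between groups. The share of all genes tested for which this holds was not computed. RPL7 had 418 and 469 CPM in the follicular pools, against 649 and 613 CPM in the anestrus pools, 1.42 times higher in anestrus on average (log2 fold change -0.51 ± 0.16). RPS24, mutated in some cases of Diamond-Blackfan anaemia in humans, had 411 and 503 CPM in the follicular pools, against 648 and 652 CPM in the anestrus pools (log2 fold change -0.51 ± 0.16, adjusted p = 0.360, edgeR). RPL6 had 418 and 391 CPM in the follicular pools, against 556 and 541 CPM in the anestrus pools, a log2 fold change of -0.44 ± 0.15. In these 3 genes both anestrus pools were high, pool 2 as well as pool 1. They were picked after their values were seen, and their adjusted p ran from 0.330 to 0.413. RPL37A (-0.53 ± 0.16) and RPS25 (-0.60 ± 0.19) were, with RPL7 and RPL10A, the 4 genes with the smallest p. RPS25 is known to be needed for initiation at some internal ribosome entry sites.

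In the other 42 genes a difference between pools of the same group was larger than that between groups. The anestrus pools differed more than the groups in 40 genes, and the follicular pools in 24. Shares over all genes tested were not computed for these counts. Pool 1 was the higher anestrus pool for 69 of the 74 (93.2%, beside 53.8% of all genes tested), by a median of 0.42 in log2 CPM. Between the follicular pools the genes split, with 39 higher in pool 1 and 35 higher in pool 2, and a median difference of 0.05. Across the 74 genes the 2 within-group differences correlated at r = 0.34 (Spearman 0.18), a description over genes that share 4 libraries. The same correlation over all genes tested was 0.26 (Spearman 0.31). The sample titles number the anestrus pools in reverse. This alone turns the sign, so that by those numbers r was -0.34 for the family and -0.26 over all genes.

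3 patterns can be set apart within the family by those differences, chosen after the values were seen and therefore not tested. The first and second match pools by the numbers in the library names, and nothing says that a number pairs pools. In 17 genes (23.0%, beside 12.7% of all genes tested) pool 1 was above pool 2 by over 0.3 in log2 CPM in both groups. They include RPL36, RPLP2, RPL13A, RPLP1, RPS28, RPS15, RPS7 and RPL11, their median log2 fold change was -0.01, and 0 of them separated the groups. RPL36 had 254 and 124 CPM in the follicular pools, against 274 and 94.3 CPM in the anestrus pools. In 34 genes (45.9%, beside 20.6% of all genes tested) pool 1 was the lower follicular pool and the higher anestrus pool. They include RPL22, RPL39, RPS29, RPL38 and RPS25, their median log2 fold change was -0.48, and 26 of them did not overlap. In 23 genes (31.1%, beside 35.8%) both differences were under 0.3 in size, with a median of -0.38, and 21 of these did not overlap, RPL15 and RPL18 being the others with RPL15 at 0.02 ± 0.15. The third pattern shares some genes with the second. The differences that define the patterns also bear on whether the groups overlap. The counts without overlap thus follow in part from the choice, and shares among all genes of each pattern were not computed.

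**Figure D4:**
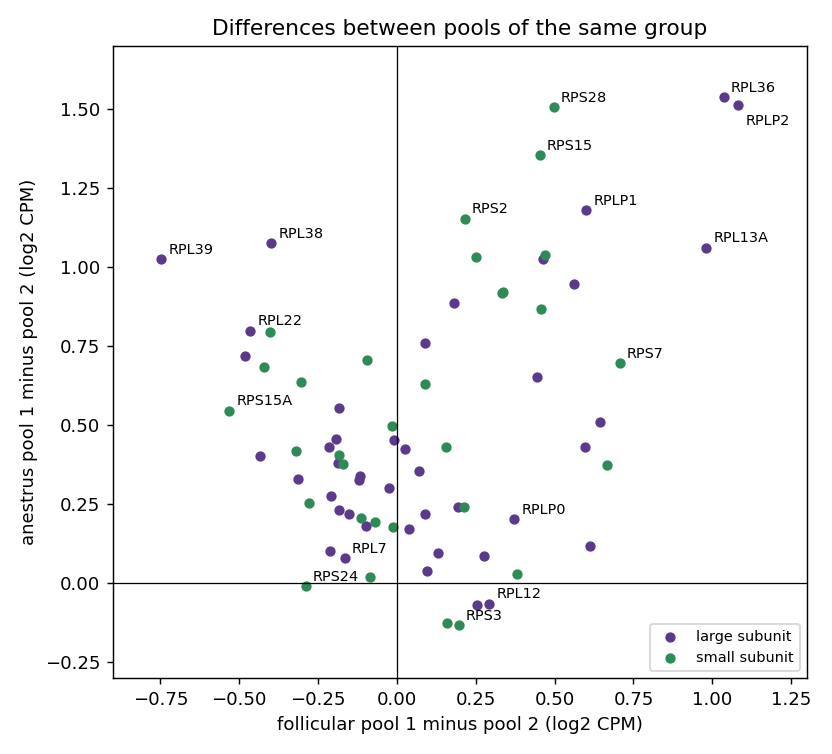
Each point is 1 of the 74 ribosomal protein genes, with the difference between follicular pools on the horizontal axis and between anestrus pools on the vertical axis, both as pool 1 minus pool 2 in log2 CPM. Nearly all points lie above 0 on the vertical axis. RPL36, RPLP2 and RPL13A lie far to the upper right, and RPL39 and RPL38 to the upper left.

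RPL22, whose loss is largely compensated in mice by its paralog RPL22L1, had the largest log2 fold change, -0.65 ± 0.27 (adjusted p = 0.555, edgeR). It had 564 and 778.0 CPM in the follicular pools, against 1340.1 and 770.3 CPM in the anestrus pools, so anestrus pool 1 alone was high. RPL22 was also the 1 ribosomal protein gene of 74 called with no count filter, at an adjusted p of 0.0310 (edgeR). That setting called 300 of 21771 genes in all. RPL22L1 was at 5.79 and 11.9 CPM in the follicular pools, against 15.4 and 9.38 CPM in the anestrus pools, with an uncalled log2 fold change of -0.49 ± 0.40. The 26 large subunit genes outside the stalk, the 5S particle, the peptide bond centre, the L1 stalk and the tunnel exit, RPL22 among them, lay at a median log2 fold change of -0.39, and 25 of them were highest in anestrus pool 1. The 22 small subunit genes outside the message channel and the decoding site had a median of -0.38, and 19 were highest in anestrus pool 1. RPS3A, RPS20 and RPS2 had log2 fold changes of -0.49 ± 0.18, -0.38 ± 0.28 and -0.36 ± 0.34. RPL3, RPS9 and RPL13A, with RPL15 the genes of smallest p above 0, had log2 fold changes of 0.09 ± 0.20, 0.08 ± 0.23 and 0.13 ± 0.49.

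Genes of other symbols that belong to the ribosome were set beside the family. FAU, which encodes RPS30 fused to a ubiquitin-like protein, had 541 and 456 CPM in the follicular pools, against 612 and 529.6 CPM in the anestrus pools, a log2 fold change of -0.20 ± 0.17. RACK1, a signalling scaffold on the small subunit, had 696 and 550.4 CPM in the follicular pools, against 701 and 793 CPM in the anestrus pools, and there anestrus pool 2 was the highest (log2 fold change -0.26 ± 0.17). The 5 paralogs that could be tested (RPL22L1, RPL26L1, RPL36AL, RPL7L1 and RPS27L) had log2 fold changes below 0, with a median of -0.43, and 0 were called. RPL10L, a copy of RPL10 known from the testis, had 0 counts in all 4 pools. RPL3L, a paralog of muscle, was barely detected, with 5 and 3 counts from follicular RNA and 7 and 0 from anestrus RNA.

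Other genes of translation were set beside the family, and 0 were called by edgeR, DESeq2 or limma-voom in the 6 lists of this and the next paragraph. Among 32 other genes whose messages carry a TOP tract (33 rows, since TPT1 has 2; FAU and RACK1 are among them), 28 rows had a log2 fold change below 0 and 5 above, with a median of -0.20, and 20 (60.6%, beside 20.7% of all genes tested) did not overlap with the follicular pools lower. At an unadjusted p under 0.05, 7 rows (21.2%) were lower and 1 higher, beside 4.29% and 4.26% of all genes tested. EIF3E, a subunit of initiation factor 3, had -0.46 ± 0.16 at 149 and 169 CPM in the follicular pools, against 217 and 222 CPM in the anestrus pools. EEF1A2, the elongation factor form of neurons and muscle, went the other way, at 804 and 572 CPM in the follicular pools, against 494 and 339 CPM in the anestrus pools (log2 fold change 0.72 ± 0.23, adjusted p = 0.369, edgeR). In this list the pools of a group lay closer together than in the ribosomal protein genes. The median size of the difference in log2 CPM was 0.12 between the follicular and 0.18 between the anestrus pools. In the ribosomal protein genes it was 0.23 and 0.42. The 47 initiation and elongation factors, which share members with the TOP list, had a median log2 fold change of -0.08, with 3 lower and 1 higher at an unadjusted p under 0.05. The 53 ribosome biogenesis genes had a median of -0.08, with 2 higher and 0 lower at an unadjusted p under 0.05. The 35 genes of mTORC1 signalling and LARP1 had a median of -0.03, and 0 reached an unadjusted p under 0.05. Both follicular pools lay below both anestrus pools in 16 of the 47 factors and 20 of the 53 biogenesis genes. The same held for 7 of the 35 mTORC1 and LARP1 genes, beside 20.7% of all genes tested. Both lay above in 1, 4 and 1 genes of these lists, in that order, beside 17.6%.

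Among these lists, the mitochondrial ribosomal protein and respiratory chain genes had anestrus pools as far apart as the ribosomal protein genes. The 77 mitochondrial ribosomal protein genes, which serve the separate ribosome of mitochondria, lay at a median of -0.15 between the groups (log2 fold change) and of 0.49 between anestrus pools 1 and 2 (difference in log2 CPM). The 58 respiratory chain and ATP synthase genes lay at -0.07 and 0.44 by the same measures. Before adjustment, 4 of the 77 had a p under 0.05, all lower in the follicular pools, and 0 of the 58. The 4 are 5.19% of their list, near the 4.29% of all genes tested with such a p and lower. In the ribosomal protein genes these medians were -0.35 and 0.42. Both follicular pools lay below both anestrus pools in 12 of the 77 (15.6%) and 6 of the 58 (10.3%), beside 20.7% of all genes tested. No test of the difference between these families was made.

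**Figure D5:**
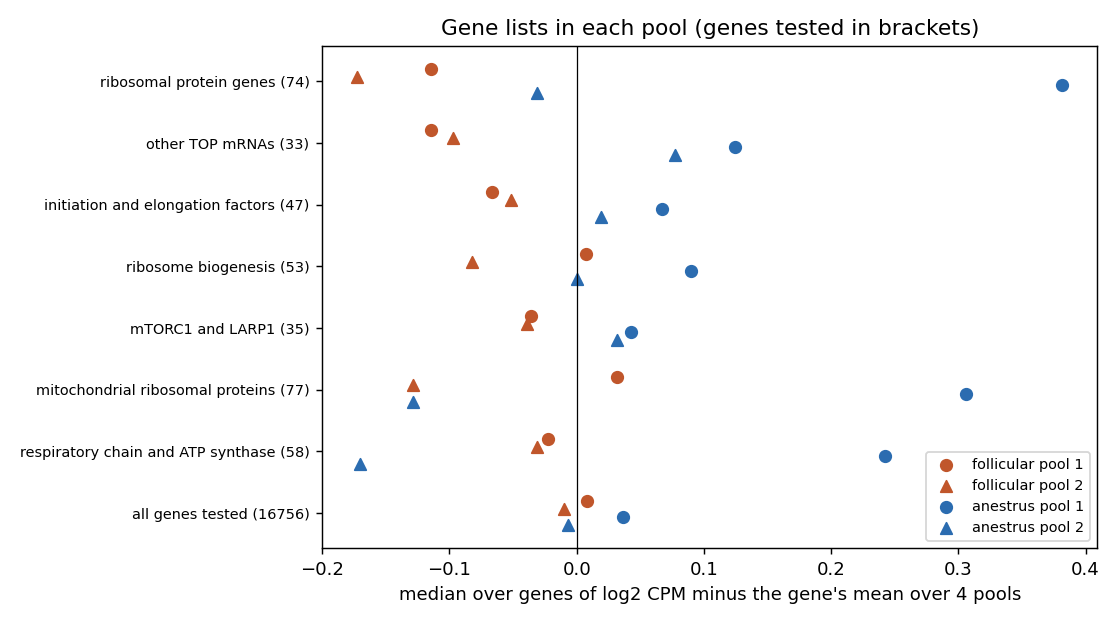
For each gene list, symbols give the median over its genes of log2 CPM minus the gene's mean over the 4 pools, with orange for follicular and blue for anestrus pools, circles for pool 1 and triangles for pool 2. In ribosomal protein genes anestrus pool 1 lies at 0.38 and anestrus pool 2 at -0.03. In mitochondrial ribosomal protein and respiratory chain genes anestrus pool 1 lies at 0.31 and 0.24, with anestrus pool 2 at -0.13 and -0.17.

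Summed levels of marker genes of other cell types were set beside these values. Astrocyte genes were at 7581 and 8329 CPM in the follicular pools, against 4396 and 4656 CPM in the anestrus pools, and pituitary hormone genes at 5527 and 4380.1 CPM in the follicular pools, against 14645 and 11265 CPM in the anestrus pools. The highest single pituitary gene made up most of each pituitary sum, at 5232 and 4295 CPM in the follicular pools, against 13142 and 10309 CPM in the anestrus pools. So did the highest single astrocyte value, at 4804 and 4829.8 CPM in the follicular pools, against 2329 and 2466 CPM in the anestrus pools. Of the 5 pituitary genes, 4 had a log2 fold change below 0 and 1 above. In edgeR 1 of 6 astrocyte genes was called higher (GFAP), 2 of 5 pituitary genes were called lower in the follicular pools, and 0 genes of the other marker lists were called. DESeq2 and limma-voom also called 1 astrocyte and 2 pituitary genes, and DESeq2 in addition 1 oligodendrocyte gene and 1 meningeal or fibroblast gene. Oligodendrocyte genes were at 3203 and 4291 CPM in the follicular pools, against 2709 and 1707 CPM in the anestrus pools. The highest single value among them was 1694 and 2417 CPM in the follicular pools, against 1370 and 1067 CPM in the anestrus pools. The median difference of oligodendrocyte genes between anestrus pools 1 and 2 was 0.65 in log2 CPM, with pool 1 higher for 6 of 6, which is wider than in the ribosomal protein genes, and between the follicular pools it was -0.38. Neuron genes were at 2722 and 3005 CPM in the follicular pools, against 2387 and 2214 CPM in the anestrus pools. For the astrocyte, oligodendrocyte and neuron lists 6 of 6 markers had a log2 fold change above 0, with an unadjusted p under 0.05 for 4, 5 and 3 of them. Microglia markers, 6 of 6 above 0 and 1 with an unadjusted p under 0.05, were at 379 and 400.4 CPM in the follicular pools, against 316 and 315 CPM in the anestrus pools. Meningeal and fibroblast genes, 6 of 6 below 0 and 4 with an unadjusted p under 0.05, were at 838 and 968 CPM in the follicular pools, against 1417 and 1268 CPM in the anestrus pools. Endothelial markers were at 154 and 153 CPM in the follicular pools, against 139 and 171 CPM in the anestrus pools, with 4 of 6 above 0 and 0 with an unadjusted p under 0.05. Choroid plexus and ependyma markers were at 359 and 115 CPM in the follicular pools, against 157 and 129 CPM in the anestrus pools, with 4 of 6 above 0 and 1, which was lower, with an unadjusted p under 0.05. Of the 359 CPM in follicular pool 1, a single gene gave 252 CPM. Of the erythrocyte genes, 1 of 2 matched was tested, at 1.53 and 1.74 CPM in the follicular pools, against 6.52 and 3.66 CPM in the anestrus pools, lower with an unadjusted p under 0.05. None of the matched markers was at 0 in all pools. The part of these marker differences in the ribosomal protein values was not tested, and in such bulk RNA fewer cells of a type and less RNA per cell cannot be told apart.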

How the data were processed

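Raw counts per gene were deposited by the authors for 4 libraries, 2 pools each of follicular and anestrus medio-basal hypothalamus RNA; the luteal libraries were not analysed here. Per the labels' protocols, TriReagent was used for extraction and the Truseq stranded mRNA kit for library construction. For alignment and counting, the submitters' processing notes name TopHat2 2.1.1, Bowtie2 2.3.5.1 and, for counts, featureCounts 2.0.0. No coordinates are printed, since the build, annotation and strand setting are not given in the sources. Symbols are those of the count table, with synonyms from the RefSeq gene table of assembly ARS1.2 (Capra hircus).

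Genes were filtered with filterByExpr (minimum count 10, minimum total 15), given TMM factors and compared, follicular against anestrus, by the robust quasi-likelihood test of edgeR 4.0.16 (R 4.3.3), which here has 2 residual degrees of freedom. Benjamini-Hochberg adjustment ran over the 16756 genes tested, and a gene is called at an adjusted p under 0.05. DESeq2 1.42.0 and limma 3.58.1 (voom) were alternatives. Standard errors are the log2 fold change divided by the root of the quasi-likelihood F. The test draws each gene's spread toward that of other genes, so its standard error and p-value do not rest on its own 4 pools alone. Log2 CPM used a prior count of 2.

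Named genes were RPLP0, RPLP1, RPLP2, RPSA, RPS6, RPS27A, RPL10, RPL5 and RPL11, the 4 members with the smallest p in each direction, and the 2 highest and 2 lowest by mean CPM. Others were named after their values were seen. Some genes that the rule picks are not reported here. The members, the gene lists and the role groups were chosen with earlier results of these data known.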

Additional observations from a re-analysis of the deposited data

How the results depend on the processing

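The number of genes called was 34, against 300 with no count filter and 146 with DESeq2, and it ran from 4 to 810 with 1 pool left out. Ribosomal protein genes called numbered 0, against 1 (RPL22) with no count filter and 0 to 24 with 1 pool left out. The count was also 0 under every other alternative, namely RLE, upper quartile or no scaling, TMM without the ribosomal protein genes, a filter at a mean of 1 CPM, no robust estimation, DESeq2 and limma-voom. Their median log2 fold change was -0.347, stayed between -0.347 and -0.306 in fits of all 4 pools, and ran from -0.486 to -0.146 with 1 pool left out. The ratio of summed levels was 0.789, was 0.789 to 0.801 with all pools, and ran from 0.716 to 0.912 with 1 left out.

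Several named genes changed direction when 1 pool was left out, and in no other alternative. Their log2 fold changes then ran from -0.316 to 0.306 for RPL11, from -0.419 to 0.754 for RPL13A, from -0.034 to 0.108 for RPL15, from -0.23 to 0.365 for RPL3, from -0.301 to 0.053 for RPLP0, from -0.56 to 0.576 for RPLP1, from -0.575 to 0.984 for RPLP2, from -0.785 to 0.324 for RPS2, from -0.728 to 0.146 for RPS20, from -0.275 to 0.373 for RPS9 and from -0.529 to 0.057 for RPSA. The cause was not tested.

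The sample titles give the anestrus pools the reverse of the numbers in the library names used here, and nothing says that a number pairs pools. Across all genes tested, same-numbered pools deviated together at r = 0.26 by library names and at -0.26 by titles. With a replicate block, 90 genes were called by library names and 130 by titles, and 0 ribosomal protein genes by either.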
